A study of Mus musculus with 50 samples.

Results

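The genes described here encode the proteins of the cytosolic ribosome, read on 50 oligonucleotide arrays of mouse neocortex and hippocampus. They were taken as every gene whose single symbol in the platform's probe annotation starts with Rpl or Rps followed by a digit, by a, or by p for the stalk proteins, leaving out the S6 kinases. This gave 35 of 8251 genes with 1 symbol, on 49 probe sets, and a gene with several probe sets is represented by the one whose mean over the 50 arrays was highest. Of the 35 genes, 29 lay above the filter on dim probe sets and were tested. The other 6, Rpl35a, Rpl39, Rpl39l, Rps14, Rps15 and Rps20, had typical signals of 45.6 to 95.2 and were not tested. Just inside the filter of 132.6 lay Rps27l at 135.5 and Rpl32 at 141.3, and just outside it Rps20 at 95.2. A further 39 probe sets carry a ribosomal protein symbol among several and were kept apart. Rps6 and Rplp1 stand only on such probe sets, and Rplp2 has no probe set with 1 symbol, so these 3 genes have no value of their own here.

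The groups were mice labelled S1P2-KO (10 arrays a tissue, 5 males and 5 females), mice labelled S1P3-KO (5 arrays a tissue, 2 males and 3 females) and wild-type mice (10 arrays a tissue, 5 males and 5 females). Both receptors, S1P2 and S1P3, sit in the cell membrane and bind the lipid messenger sphingosine 1-phosphate. All mice were 8 weeks old, and those without S1P2 have seizures at 4 to 7 weeks of age while those without S1P3 have none. The sources used here give neither strain nor the construction of either allele, and do not say whether both tissues came from 1 animal, so p-values measure the spread between these arrays. Differences are log2 estimates ± SE from limma, a change "passed" when its p-value adjusted over all 8534 tested probe sets was under 0.05, and signals are on the linear MAS5 scale.

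A ribosome is built from ribosomal RNA and one copy of most ribosomal proteins, so cells make these proteins in matched amounts, and their messenger RNAs are among the most abundant of any tissue. Proteins of the small subunit (Rps) help to read the messenger RNA, those of the large subunit (Rpl) surround the site where peptide bonds form, and Rplp0 carries the stalk that draws in translation factors. In neurons translation also runs in dendrites near synapses, and the kinases that phosphorylate Rps6 are activated by neuronal firing. In mammals many of these messenger RNAs start with a run of pyrimidines, through which the mTOR pathway controls their translation, so their level and their protein output can part.

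Promoter windows of 250 bases before to 50 after the start, from RefSeq on GRCm38.p6, were held for 28 of the 35 genes in 37 windows. The letters CGGAAG on either strand (CTTCCG on the other), the core that ETS factors such as GABPA can bind, stood in 20 of the 37 windows (54.1%), against 5537 of 32851 windows of all genes (16.9%). A run of at least 5 pyrimidines that begins with C within 10 bases of the start stood in 18 of the 37 windows (48.6%), against 30.7% of all windows. The sequences below cover 75 bases before to 25 after the start for Rplp0, Rps7 and Rps4x, which differed between tissues below, and for Rps18, whose full window holds 4 cores. Capitals mark the core, and the run of pyrimidines was found at the starts of Rps7 and Rps18.
Rplp0, chr5:115559392-115559491 (+): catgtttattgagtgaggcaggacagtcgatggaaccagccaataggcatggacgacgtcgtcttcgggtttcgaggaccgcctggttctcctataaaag
Rps7, chr12:28635929-28636028 (-): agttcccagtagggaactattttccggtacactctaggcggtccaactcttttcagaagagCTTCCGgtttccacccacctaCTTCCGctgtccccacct
Rps4x, chrX:102189367-102189466 (-): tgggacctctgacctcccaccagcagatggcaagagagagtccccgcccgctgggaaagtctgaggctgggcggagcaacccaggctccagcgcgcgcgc
Rps18, chr17:33955641-33955740 (-): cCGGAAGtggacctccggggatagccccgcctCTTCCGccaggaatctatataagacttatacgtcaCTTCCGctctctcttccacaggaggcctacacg
Of the 3 genes shown that passed a test, Rps7 holds 3 cores in its full window and Rplp0 and Rps4x hold 0. A match describes these letters only and is no evidence of a factor at the site.

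S1pr2, which encodes S1P2, had median signals of 646.7 in S1P2-KO against 727.4 in wild-type neocortex and of 478.2 in S1P2-KO against 649.9 in wild-type hippocampus, with overlapping ranges in both tissues. S1pr3, which encodes S1P3, had lower medians in S1P3-KO than in wild-type mice in both tissues. In neocortex its median was 637.4 (500.6 to 1122) in S1P3-KO against 846.55 (629.2 to 1077) in wild-type. In hippocampus it was 480.7 (451.4 to 551.9) in S1P3-KO against 859.8 (470.3 to 1129) in wild-type. The ranges of S1pr3 overlapped in both tissues as well. Where either probe set lies relative to the deleted part is not given in the sources used here, so the genotypes are those of the labels. The ratio of 3' to 5' control signal, which rises with RNA degradation, was above 1 on the log2 scale on 3 hippocampus arrays and on none of neocortex: 1.37 on S1P2-KO replicate 7, 4.46 on S1P3-KO replicate 5 and 1.20 on wild-type replicate 4. The tissues carried their markers: all 4 tested hippocampus markers (Dsp, Zbtb20, Lct and Tdo2) were higher in wild-type hippocampus and all 3 tested neocortex markers (Mef2c, Tbr1 and Igfbp6) were lower, each past the threshold.

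The question of the knockouts was whether ribosomal protein transcripts shift with the loss of either receptor, and in particular in the genotype that has seizures. In none of the 4 comparisons of a knockout with wild-type did a ribosomal protein gene pass the threshold. Across all 8534 probe sets 0% passed in S1P2-KO neocortex, 0% in S1P2-KO hippocampus, 0% in S1P3-KO neocortex and 0.0352% in S1P3-KO hippocampus, where none of the 3 probe sets was of a ribosomal protein gene and 2 were of Gfap, an astrocyte filament. Unadjusted p-values under 0.05 were found by limma for 2, 0, 4 and 0 of the 29 genes in these comparisons, against 746, 473, 895 and 814 of all probe sets.

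The median difference of the 29 genes was -0.03 in S1P2-KO neocortex, with 8 higher and 21 lower than in wild-type, against -0.01 over all probe sets. It was -0.03 in S1P2-KO hippocampus, with 9 higher and 20 lower. In fits of 1 sex, added after the values were seen, the S1P2-KO medians lay below 0 for male arrays and above 0 for female arrays. Among male arrays the median was -0.10 in neocortex (4 of 29 higher) and -0.13 in hippocampus (8 of 29 higher), and among female arrays it was 0.04 (19 of 29 higher) and 0.04 (18 of 29 higher). The difference between the sexes was not tested. In S1P3-KO the median was -0.06 in neocortex (12 higher, 17 lower) and -0.03 in hippocampus (10 higher, 19 lower), and 1 array decides either sign: it was 0.02 in neocortex without S1P3-KO replicate 2, and 0.02 and 0.07 in hippocampus without S1P3-KO replicate 1 or 2. With the replicate block the S1P3-KO medians were lower, at -0.15 in neocortex and -0.185 in hippocampus. Within a tissue that block joins arrays of different genotypes by replicate number, and so different mice. S1P3-KO replicates 3 to 5 were female and wild-type replicates 3 to 5 male, so these 2 values are no matched comparison. The probe sets with several symbols leaned the same way in S1P2-KO, with 30 of 36 lower in neocortex (median -0.07) and 31 of 36 lower in hippocampus (median -0.10), and limma passed 0 of these in either tissue, with 3 and 1 at an unadjusted p under 0.05. These counts are over both sexes. The comparisons of a tissue share their wild-type arrays, and these counts describe genes that share arrays, and no p is attached to them.

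**Figure D1:**
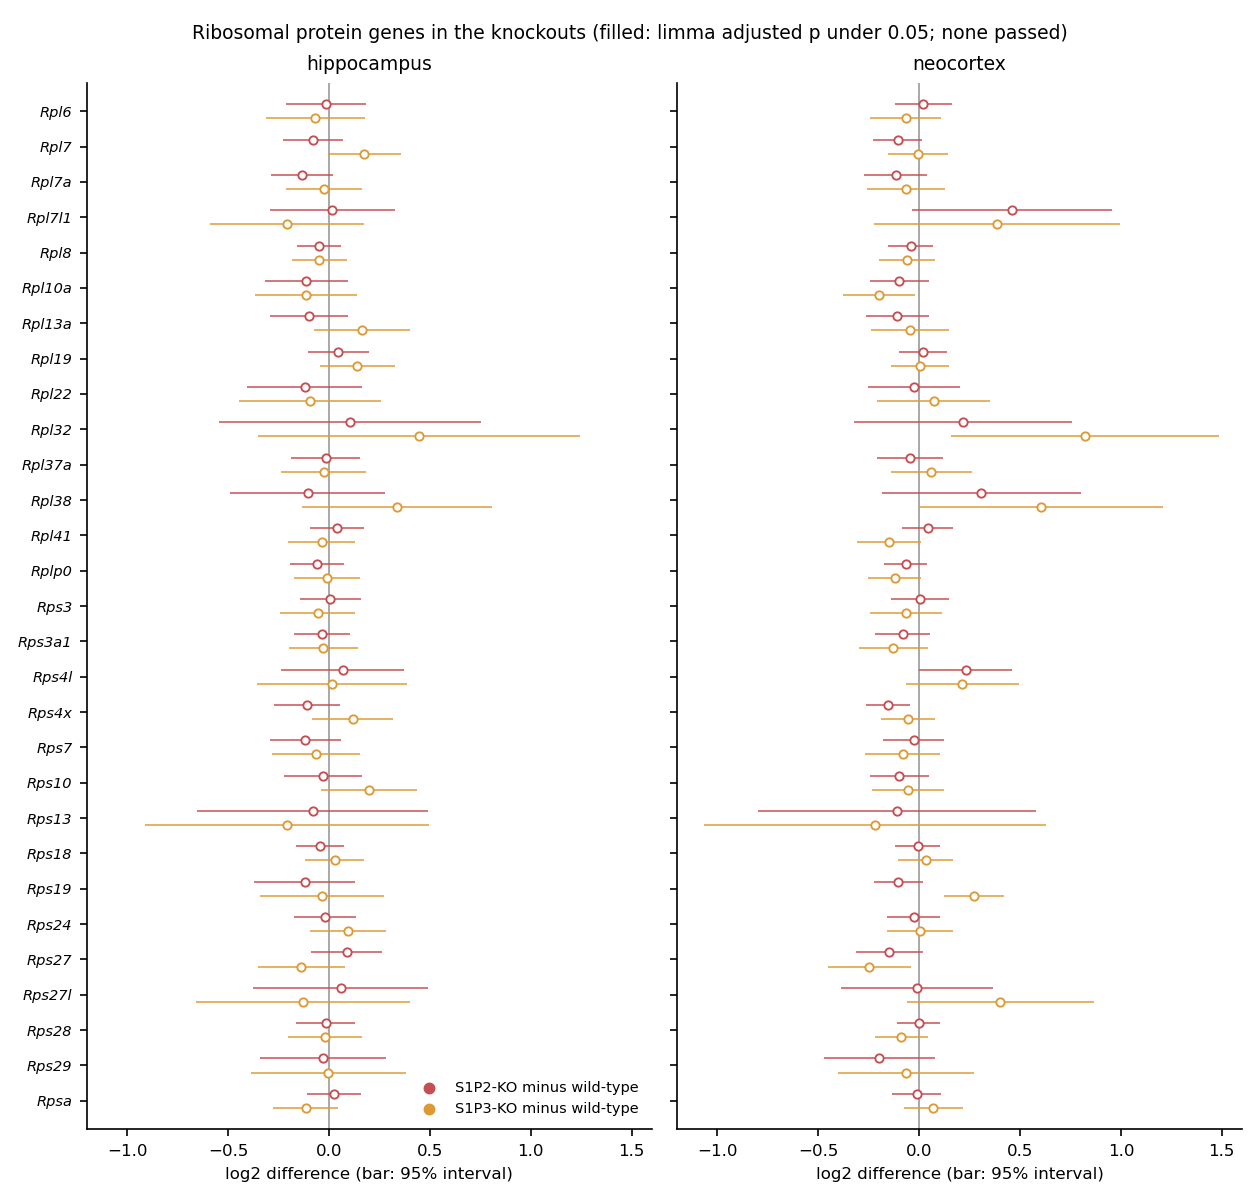
Log2 difference of each tested ribosomal protein gene between a knockout and wild-type, in hippocampus (left) and neocortex (right), with its 95% interval. None passed the threshold; most estimates lie within 0.2 of 0, and the wide intervals belong to members that varied widely between arrays, such as Rps13, Rpl32, Rpl38 and, in neocortex, Rpl7l1.

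The bright members were bounded most closely. Rplp0, the stalk base, had a median of 14356 (13552 to 15848) in S1P2-KO neocortex against 15328 (13210 to 17226) in wild-type neocortex, a difference of -0.07 ± 0.05 with a 95% interval of -0.17 to 0.04. In hippocampus the difference of Rplp0 was -0.06 ± 0.06 in S1P2-KO and -0.01 ± 0.08 in S1P3-KO. Rpsa, a small subunit protein also known as the laminin receptor, differed by -0.01 ± 0.06 in S1P2-KO neocortex and by 0.02 ± 0.06 in S1P2-KO hippocampus, with intervals that stay within 0.16 of 0. The members that varied most between arrays were bounded least: Rps13, of the small subunit, ran from 297.8 to 1299 in S1P3-KO neocortex against 304.8 to 1626 in wild-type neocortex and differed by -0.22 ± 0.41.

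The largest values in S1P2-KO neocortex were 0.46 ± 0.24 for Rpl7l1, a paralog of Rpl7, 0.31 ± 0.24 for Rpl38 and 0.23 ± 0.11 for Rps4l, a paralog of Rps4x. That of Rpl7l1 rests in part on wild-type neocortex replicate 9, which read 36.1 against 175.6 to 424.7 on the other 9 arrays, and without it the difference was 0.22 ± 0.16. The lowest were -0.20 ± 0.13 for Rps29, -0.15 ± 0.05 for Rps4x, the X-linked form of small subunit protein S4, and -0.15 ± 0.08 for Rps27. Rps4x had a median of 10899 (10352 to 13126) in S1P2-KO neocortex and 12734 (11055 to 13283) in wild-type neocortex. Of the 10 S1P2-KO arrays 6 lay below every wild-type array, the unadjusted p was 0.00783 and the adjusted p from limma was 0.341. Rps4x differed by -0.225 on male arrays alone (adjusted p = 0.273) and by -0.08 on female arrays alone (adjusted p = 0.837). In S1P2-KO hippocampus the values ran from -0.13 ± 0.07 for Rpl7a (-0.26 on male and -0.01 on female arrays alone), -0.12 ± 0.12 for Rps19 and -0.12 ± 0.14 for Rpl22 up to 0.07 ± 0.15 for Rps4l, 0.09 ± 0.09 for Rps27 and 0.10 ± 0.32 for Rpl32.

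In S1P3-KO neocortex the highest values were 0.82 ± 0.32 for Rpl32, 0.60 ± 0.30 for Rpl38 and 0.40 ± 0.23 for Rps27l, a paralog of Rps27. All stand on dim probe sets with the suffix _r, and how well these read their genes was not tested. The probe set of Rps13 carries the same suffix. The lowest were -0.25 ± 0.10 for Rps27, -0.22 ± 0.41 for Rps13 and -0.20 ± 0.09 for Rpl10a. In S1P3-KO hippocampus they ran from -0.21 ± 0.34 for Rps13, -0.21 ± 0.19 for Rpl7l1 and -0.14 ± 0.11 for Rps27 up to 0.20 ± 0.12 for Rps10, 0.34 ± 0.23 for Rpl38 and 0.45 ± 0.39 for Rpl32.

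Rps19, a small subunit protein whose mutation in people causes Diamond-Blackfan anaemia, had the lowest p of the members in S1P3-KO neocortex. Its signals there were 3650, 3930, 3375, 3930 and 3917, against a lowest, median and highest of 2612, 3159 and 3547 in wild-type neocortex. Of the 5 S1P3-KO arrays 4 lay above every wild-type array, and the difference was 0.27 ± 0.07 with an adjusted p from limma of 0.173. Over the alternatives and left-out arrays the difference ran from 0.16 to 0.33 and the adjusted p from limma from 0.0459 to 0.546. The 0.16 came with the replicate block, which joins different mice across genotypes. The difference passed only when the 3' to 5' ratio entered the model. In S1P2-KO neocortex Rps19 ran from 2513 to 3311 with a median of 2942, so all 10 S1P2-KO arrays lay below all 5 S1P3-KO arrays. That difference between the knockouts was -0.38 ± 0.07, with an adjusted p of 0.143. Its adjusted p ran from 0.0446 to 0.645 over the alternatives and left-out arrays, and again passed only with the ratio in the model. How many of all probe sets separate these groups as fully was not counted, so the separation of Rps19 has no background share beside it. In hippocampus Rps19 spread more widely, from 2173 to 4938 in S1P3-KO against 2860 to 4987 in wild-type (-0.04 ± 0.15).

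Between the 2 knockouts 0 of the 29 genes passed in either tissue, where 0% of all probe sets passed in neocortex and 0% in hippocampus. Limma gave unadjusted p-values under 0.05 for 2 of the members and 506 of all probe sets in neocortex, and for 4 of the members and 982 of all in hippocampus. In neocortex the other low values of S1P2-KO against S1P3-KO were -0.61 ± 0.32 for Rpl32 and -0.41 ± 0.23 for Rps27l, and the high ones 0.19 ± 0.08 for Rpl41, 0.11 ± 0.41 for Rps13 and 0.10 ± 0.09 for Rpl10a. In hippocampus they ran from -0.44 ± 0.23 for Rpl38, -0.34 ± 0.39 for Rpl32 and -0.26 ± 0.12 for Rpl13a up to 0.19 ± 0.26 for Rps27l, 0.22 ± 0.19 for Rpl7l1 and 0.22 ± 0.11 for Rps27. These comparisons share their knockout arrays with those against wild-type.

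Set against neocortex, hippocampus had more signal for most ribosomal protein genes in every genotype, though few passed one by one. In wild-type mice 24 of the 29 genes were higher in hippocampus, with a median difference of 0.15, against 0.004 over all probe sets, of which 4316 of 8534 were higher. In S1P2-KO mice 24 of 29 were higher (median 0.16, against 0.01 over all), and in S1P3-KO mice 19 of 29 (median 0.14, against -0.01 over all). The gene by gene differences are shown in the plot of hippocampus minus neocortex. No member's tissue difference was called different between genotypes: the knockout effect in hippocampus minus that in neocortex passed for 0 of 29 genes in S1P2-KO and 0 of 29 in S1P3-KO, where 0% and 0% of all probe sets passed. Unadjusted p-values under 0.05 in these limma interactions numbered 0 for the members in either genotype, and 222 and 438 over all.

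**Figure D2:**
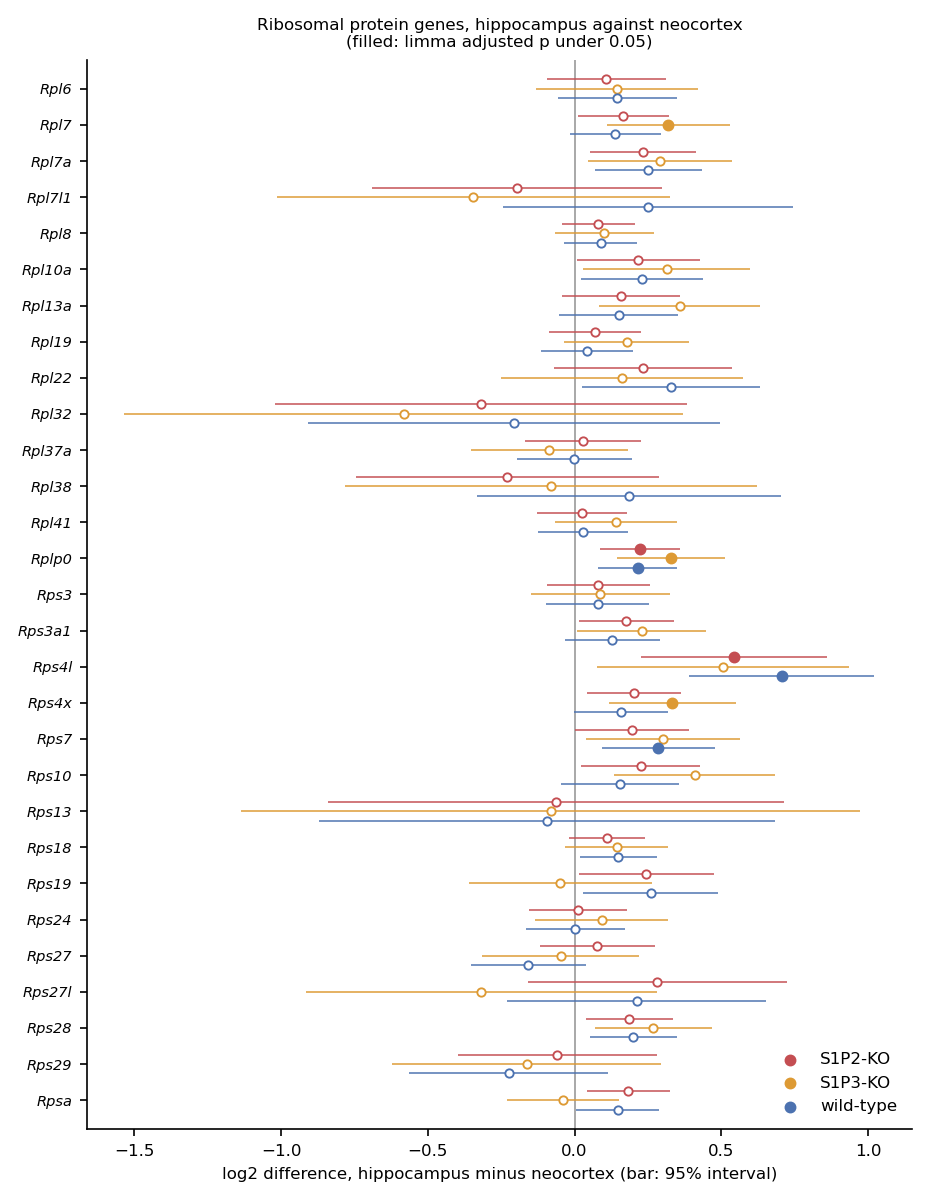
Log2 difference between hippocampus and neocortex for each tested ribosomal protein gene, with its 95% interval, in S1P2-KO, S1P3-KO and wild-type mice. Filled points passed the threshold: Rplp0 in all 3 genotypes, Rps4l in S1P2-KO and wild-type, Rps7 in wild-type, and Rpl7 and Rps4x in S1P3-KO, all higher in hippocampus.

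By single genes 3 of 29 passed in wild-type mice, 2 in S1P2-KO and 3 in S1P3-KO, all higher in hippocampus. Over all probe sets 10.4% passed in wild-type mice (5.43% higher), 10.2% in S1P2-KO (5.21% higher) and 7.99% in S1P3-KO (4.15% higher), so the count of members that passed is near the background and the lean lies in the direction. Unadjusted p-values under 0.05 numbered 10 of 29 in wild-type, 12 in S1P2-KO and 11 in S1P3-KO, all for genes higher in hippocampus, against 1876, 1710 and 1794 of all 8534 probe sets in either direction.

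By its representative probe set Rplp0 passed in all 3 genotypes, as did the second probe set of Rps28, given below. In wild-type mice it had a median of 17404 (14513 to 19358) in hippocampus and 15328 (13210 to 17226) in neocortex, a difference of 0.21 ± 0.07 (adjusted p = 0.0294), with 6 of 10 hippocampus arrays above every neocortex array. In S1P2-KO mice its median was 16470 (14863 to 18195) in hippocampus and 14356 (13552 to 15848) in neocortex, 0.22 ± 0.07 (adjusted p = 0.0225), with 8 of 10 above every neocortex array. In S1P3-KO mice the 5 hippocampus arrays had 16128, 14294, 18003, 16790 and 20338, against 12984, 12747, 14267, 16248 and 13861 in neocortex, 0.33 ± 0.09 (adjusted p = 0.0163). In each genotype the ranges of the 2 tissues overlapped. The call in S1P2-KO was lost without neocortex replicate 4 (adjusted p = 0.0557) or hippocampus replicate 1 (adjusted p = 0.0541), and that in S1P3-KO without neocortex replicate 1 (adjusted p = 0.0714) or 2 (adjusted p = 0.0812). Median centring also ended it in wild-type (adjusted p = 0.0921) and S1P2-KO mice (adjusted p = 0.0832), and in S1P3-KO mice so did array weights (adjusted p = 0.0833) or entering the 3' to 5' ratio in the model (adjusted p = 0.0706). In wild-type hippocampus the males and females did not overlap: the 5 males ran from 17556 to 19358 and the 5 females from 14513 to 17252. In wild-type neocortex they did, with 15171 to 17226 in males and 13210 to 15809 in females, and sex stood in the model as a term shared by the genotypes of a tissue. On male arrays alone Rplp0 differed by 0.23 (adjusted p = 0.0115) in wild-type and 0.24 (adjusted p = 0.00734) in S1P2-KO mice, and on female arrays alone by 0.12 (adjusted p = 0.435) and 0.12 (adjusted p = 0.417).

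Rps7, a small subunit protein, had a median of 18752 (17244 to 23234) in wild-type hippocampus and 15790 (13770 to 18843) in wild-type neocortex, 0.28 ± 0.10 (adjusted p = 0.0463). Every hippocampus array lay above the neocortex median and 5 lay above every neocortex array. The same difference was 0.19 ± 0.10 in S1P2-KO (adjusted p = 0.243) and 0.30 ± 0.13 in S1P3-KO (adjusted p = 0.164). Leaving out any of 11 single wild-type arrays ended the call of Rps7, and leaving out hippocampus replicate 1, 2, 3 or 4 in turn also ended that of Rplp0, which left Rps4l as the 1 member that passed in wild-type mice.

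Rps4l had the largest difference of any member in wild-type mice. Its median was 1288 (856.9 to 1605) in wild-type hippocampus against 708.8 (510.1 to 1095) in wild-type neocortex, 0.71 ± 0.16 (adjusted p = 0.00109), and 7 of 10 hippocampus arrays lay above every neocortex array. In S1P2-KO mice it was 1300 (679.5 to 2151) against 884 (688.7 to 1088), 0.54 ± 0.16 (adjusted p = 0.0157), and in S1P3-KO mice 0.51 ± 0.21 (adjusted p = 0.151). This is the value of a probe set with the suffix _s, whose probes can match more than 1 sequence. The other, dimmer probe set of Rps4l differed by -0.10 ± 0.25 in wild-type, -0.02 ± 0.25 in S1P2-KO and 0.36 ± 0.34 in S1P3-KO mice, and the mean of both gave 0.30 (adjusted p = 0.232) in wild-type and 0.26 (adjusted p = 0.357) in S1P2-KO mice. The calls therefore belong to that probe set and are uncertain for the gene.

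In S1P3-KO mice Rpl7, of the large subunit, had 10325, 12797, 13204, 12466 and 16321 in hippocampus, against 10232, 9131, 10540, 10891 and 10710 in neocortex, 0.32 ± 0.10 (adjusted p = 0.0478). Rps4x had 15110, 13690, 14153, 13889 and 19431 in hippocampus, against 13862, 10977, 11420, 11812 and 11806 in neocortex, 0.33 ± 0.11 (adjusted p = 0.0451). The highest value of both genes came from hippocampus replicate 5, the array with a 3' to 5' ratio of 4.46. Without it Rpl7 differed by 0.24 (adjusted p = 0.145) and Rps4x by 0.26 (adjusted p = 0.136), and 1 member passed in S1P3-KO mice. Leaving out neocortex replicate 1, 2 or 3 or hippocampus replicate 2, 3 or 4 also ended the call of Rpl7, and leaving out neocortex replicate 2, 3, 4 or 5 or hippocampus replicate 1 that of Rps4x. Neocortex replicate 2 ended the calls of Rpl7, Rps4x and Rplp0 alike, so that 0 members passed without it.

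**Figure D3:**
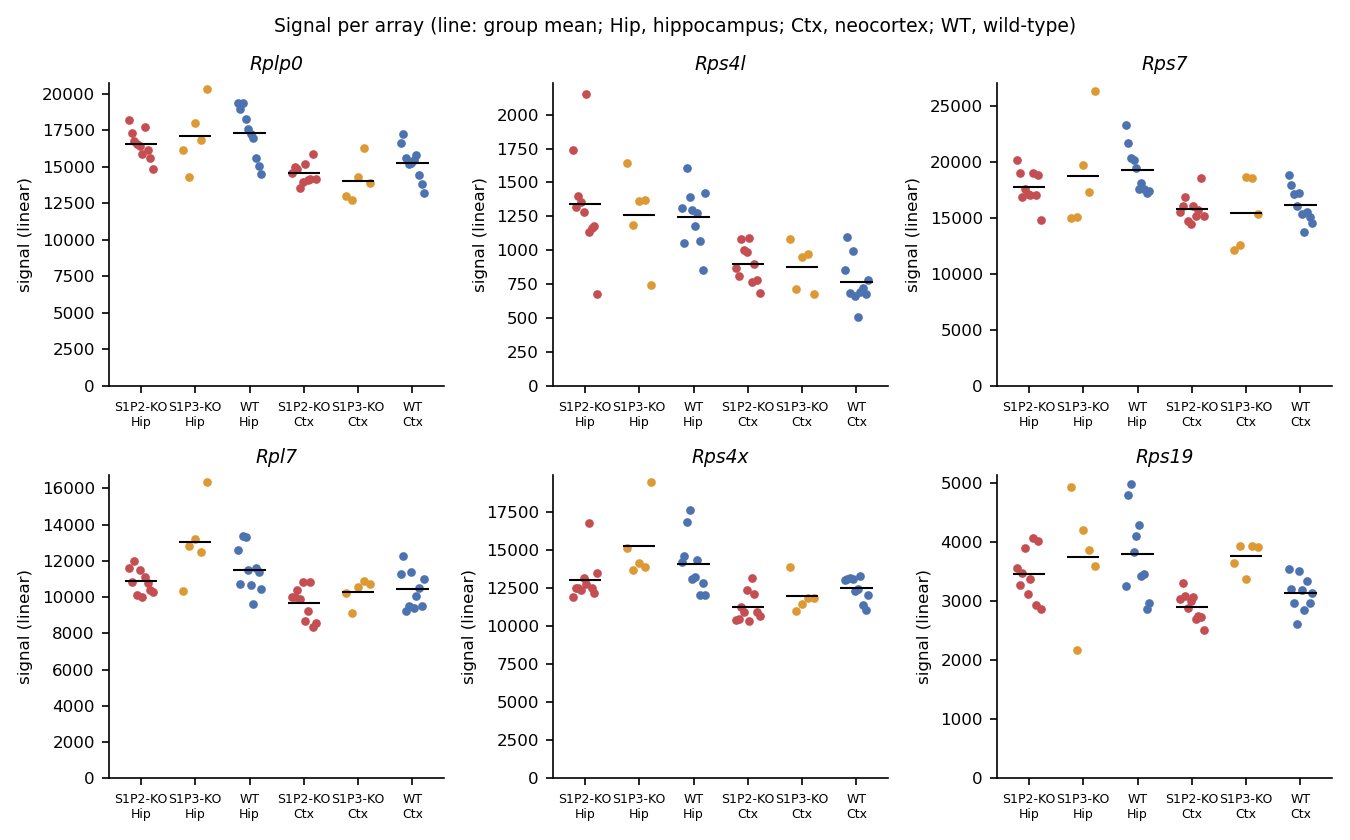
Linear signal per array (points) and group mean (line) of Rplp0, Rps4l, Rps7, Rpl7, Rps4x and Rps19 in the 6 groups; Hip stands for hippocampus, Ctx for neocortex and WT for wild-type. Rplp0 is higher in hippocampus than in neocortex in each genotype with some overlap. In neocortex the S1P2-KO arrays of Rps19 lie below its S1P3-KO arrays, a difference that did not pass the threshold.

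The lowest values in wild-type hippocampus against neocortex were -0.23 ± 0.17 for Rps29, -0.21 ± 0.35 for Rpl32 and -0.16 ± 0.10 for Rps27. In S1P2-KO mice they were -0.32 ± 0.35 for Rpl32, -0.23 ± 0.26 for Rpl38 and -0.20 ± 0.25 for Rpl7l1, and in S1P3-KO mice -0.58 ± 0.47 for Rpl32, -0.35 ± 0.33 for Rpl7l1 and -0.32 ± 0.30 for Rps27l. For Rpsa the differences were 0.18 ± 0.07 in S1P2-KO, -0.04 ± 0.10 in S1P3-KO and 0.15 ± 0.07 in wild-type mice. Rps27l stood at 0.28 ± 0.22 in S1P2-KO and 0.21 ± 0.22 in wild-type mice, and Rpl7l1 at 0.25 ± 0.25 in wild-type mice, or 0.11 ± 0.18 without neocortex replicate 9. Rps28, of the small subunit, is read by 3 probe sets that did not give the same call. The brightest carries the suffix _f and the dimmest the suffix _r, and both carry the same sequence accession. The next in brightness carries neither suffix. In wild-type mice the brightest gave 0.20 ± 0.07 (adjusted p = 0.0725), the next 0.31 ± 0.10 (adjusted p = 0.0304) and the dimmest -0.05 ± 0.19. The second of these also passed in S1P2-KO mice (0.32 ± 0.10, adjusted p = 0.0222) and S1P3-KO mice (0.42 ± 0.13, adjusted p = 0.0388), where the brightest gave an adjusted p of 0.104 and 0.0909. The brightest probe sets of Rps24 and Rpl7 carry the same sequence accession, so which gene either reads is uncertain, the call of Rpl7 in S1P3-KO mice included. That of Rps24 differed by 0.003 ± 0.08 in wild-type mice.

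The direction was most even among the bright probe sets, a split chosen after the values were seen. Of the 18 members among the brightest 10% of tested probe sets (typical signal above 4134) 17 were higher in wild-type hippocampus than in neocortex, with a median of 0.15. Of 812 other probe sets above that signal 429 were higher, with a median of 0.01. Brightness was not matched above that signal, where the typical signal of a member reached 63078 (Rpl41). The members were set against the same 812 in each genotype. In S1P2-KO mice 18 of 18 were higher (median 0.17), against 415 of 812, and in S1P3-KO mice 16 of 18 (median 0.20), against 440 of 812. Of the 11 dimmer members 7 were higher in wild-type, 6 in S1P2-KO and 3 in S1P3-KO hippocampus. The probe sets with several symbols, which the rule left out, showed the lean as well: 35 of 36 were higher in wild-type hippocampus (median 0.20, 2 passed), 33 of 36 in S1P2-KO (median 0.18) and 29 of 36 in S1P3-KO (median 0.20). Some of these may share transcripts with the members.

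The lean could also be read array by array, as the median over the 29 genes of each gene's log2 deviation from its mean over the 50 arrays. In S1P2-KO mice this was 0.04 (-0.01 to 0.14) in hippocampus and -0.13 (-0.20 to 0.06) in neocortex, and all 10 hippocampus arrays lay above the neocortex median. In S1P3-KO mice it was 0.06 (-0.14 to 0.37) in hippocampus and -0.005 (-0.29 to 0.04) in neocortex, with 4 of 5 above. In wild-type mice it was 0.09 (-0.04 to 0.20) in hippocampus and -0.06 (-0.16 to 0.08) in neocortex, with 10 of 10 above and 5 above every neocortex array. Those 5 were the males, and the sexes did not overlap in either wild-type tissue: males ran from 0.13 to 0.20 and females from -0.04 to 0.05 in hippocampus, and males from -0.06 to 0.08 and females from -0.16 to -0.06 in neocortex. In S1P2-KO mice the sexes overlapped in both tissues. In S1P3-KO hippocampus they did not, in the opposite order, with the 2 males from -0.14 to 0.04 and the 3 females from 0.06 to 0.37, and in S1P3-KO neocortex they overlapped. Within each sex the tissue median of the fits stayed above 0, at 0.17 in males and 0.12 in females of wild-type and 0.15 in males and 0.12 in females of S1P2-KO mice. The highest array of each hippocampus group was the one with a 3' to 5' ratio above 1.

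**Figure D4:**
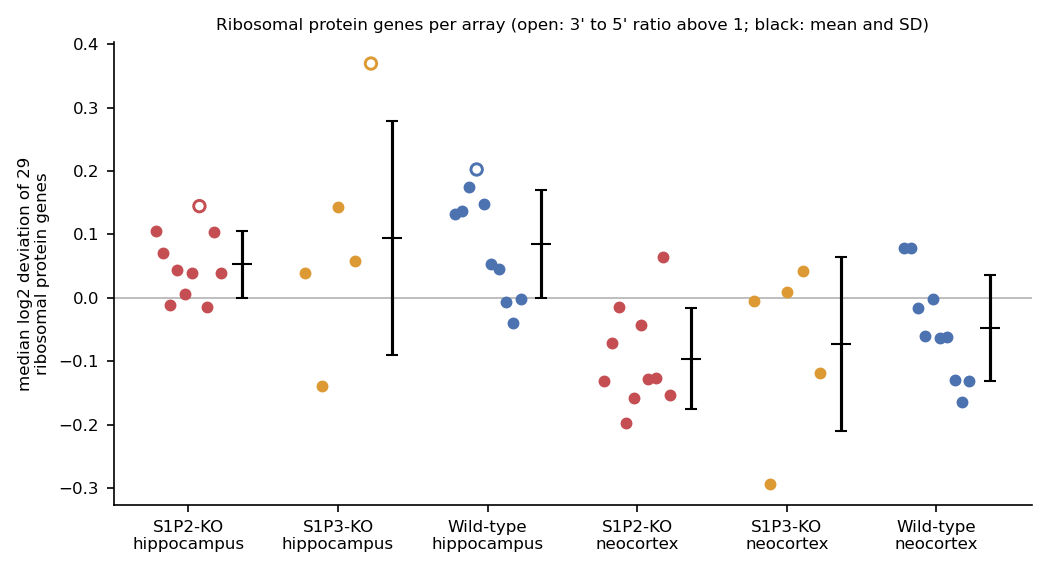
Median log2 deviation of the 29 tested ribosomal protein genes on each array (points), by group, with the group mean and SD in black. Open points are the 3 arrays whose 3' to 5' ratio was above 1 on the log2 scale, each the highest of its group; hippocampus arrays sit mostly above 0 and neocortex arrays mostly below.

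Within groups most of the genes varied little, and the members varied partly together. The median SD within groups was 0.16 in neocortex and 0.18 in hippocampus on the log2 scale, against 0.27 and 0.31 over all tested probe sets. In neocortex it ran from 0.10 for Rplp0 to 0.87 for Rps13. The members Rps29 (0.31), Rps27l (0.31), Rpl38 (0.54), Rpl7l1 (0.58) and Rpl32 (0.66) also lay above the 0.27 of all probe sets. That of Rpl7l1 includes wild-type neocortex replicate 9, which read 36.1 against 175.6 to 424.7 on the others, and in hippocampus its SD was 0.32. Of the 29 members 18 were among the brightest 10% of tested probe sets, and MAS5 signals are noisy when low. Other probe sets as bright were not compared in spread or correlation, so the part of brightness was not tested. Over the 406 pairs of members the median correlation of deviations from the group means was 0.16 across the 25 neocortex arrays (67.2% of pairs above 0) and 0.16 across the 25 hippocampus arrays (65.3%), against 0.00014 and -0.0022 over all pairs of probe sets. Without the 3 arrays of high ratio it was 0.16 in hippocampus. The points of each correlation share arrays and their scaling, and probe sets of some members may cross-hybridise, so these values are descriptions. Sex was not removed from these deviations, and its part in the correlations was not tested.

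Of the wider translation machinery, the mitochondrial ribosomal proteins, which serve a separate ribosome, leaned the same way: 45 of 58 were higher in wild-type hippocampus than in neocortex (median 0.12) and 1 passed, Mrpl52 (0.34 ± 0.08, adjusted p = 0.0034). In S1P2-KO mice 40 of 58 were higher (median 0.07, 2 passed) and in S1P3-KO mice 40 of 58 (median 0.14, 2 passed). Over all probe sets 10.4% passed in wild-type, 10.2% in S1P2-KO and 7.99% in S1P3-KO mice. A smaller share of these 58 passed, and their lean lies in the direction. Of 42 ribosome biogenesis factors 26 were higher in wild-type (median 0.09), 21 in S1P2-KO (median -0.003) and 20 in S1P3-KO mice (median -0.01). Limma passed 0 of these in wild-type mice and gave 8 an unadjusted p under 0.05, 4 higher and 4 lower, a smaller share than that of all probe sets given above (1876 of 8534). Of 7 elongation factors 3 were higher and 1 passed, Eef1a1 (0.29 ± 0.09, adjusted p = 0.0211), which brings aminoacyl-tRNA to the ribosome. Of 35 initiation factors 17 were higher (median -0.01) and 0 passed, with 2 at an unadjusted p under 0.05. Fau, which encodes a fusion of a ubiquitin-like protein with ribosomal protein S30, was -0.33 ± 0.31 (adjusted p = 0.589).

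In a list of 13 genes, mostly partners of the ribosome and the nascent chain, 2 rose in wild-type hippocampus. These were Srp14 of the signal recognition particle (0.32 ± 0.08, adjusted p = 0.003) and Pabpc1, which binds poly(A) tails (0.30 ± 0.08, adjusted p = 0.00723). The 1 that fell, Nap1l1 (-0.31 ± 0.10, adjusted p = 0.0373), is a histone chaperone that the list also held. Of 11 genes of the S6 kinases and the mTOR pathway 2 rose, and both are known to restrain mTOR: Ddit4 (0.97 ± 0.15, adjusted p = 3.07e-06) and Tsc2 (0.42 ± 0.10, adjusted p = 0.00137). Over all probe sets 10.4% passed in wild-type mice, and lists this small cannot be set closely against that share. In the 4 comparisons of a knockout with wild-type limma passed 0 genes of these lists. Unadjusted p-values under 0.05 are given here for S1P2-KO neocortex and hippocampus, then S1P3-KO neocortex and hippocampus, where 746, 473, 895 and 814 of all 8534 probe sets had one. They numbered 4, 2, 5 and 5 of the 58 mitochondrial ribosomal proteins, 2, 4, 4 and 0 of the 42 biogenesis factors, and 5, 3, 2 and 3 of the 35 initiation factors. Among the small lists they numbered 3, 0, 3 and 1 of the 7 elongation factors, 2, 1, 4 and 2 of the 11 S6 kinase and mTOR genes, and 2, 0, 2 and 3 of the 13 genes of the partner list. The 4 S6 kinase and mTOR genes in S1P3-KO neocortex were all higher, and in each set of 3 elongation factors 2 were higher and 1 lower.

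**Figure D5:**
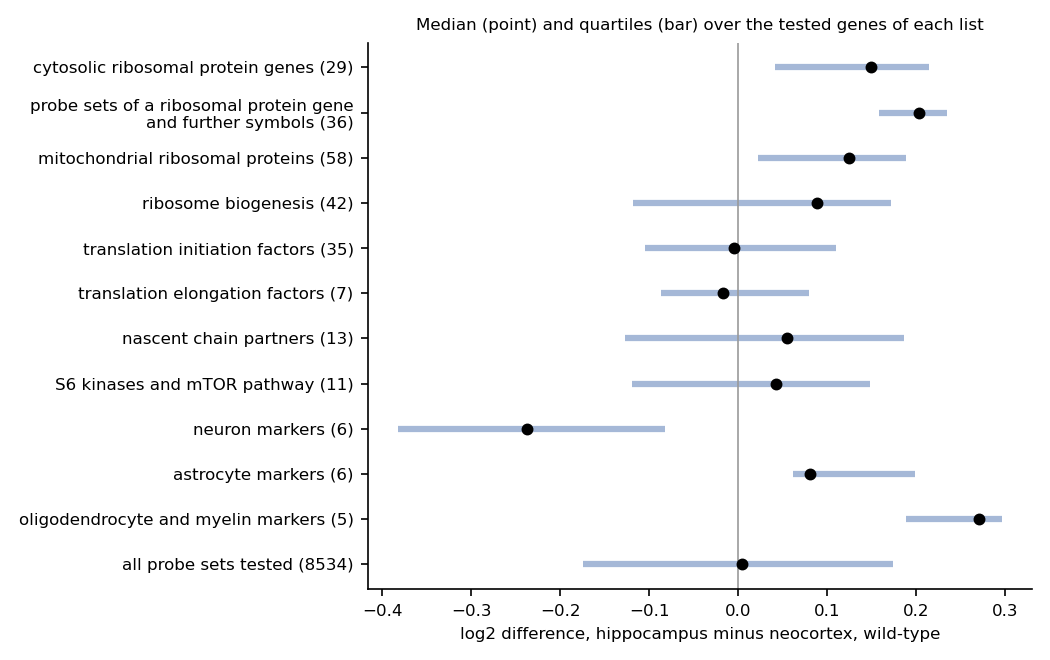
Median (point) and quartiles (bar) of the log2 difference between hippocampus and neocortex in wild-type mice for ribosomal protein genes, related lists and cell type markers, with the number tested in brackets. The median is 0.15 for cytosolic and 0.12 for mitochondrial ribosomal proteins, and -0.24 for neuron markers.

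Cell type markers differed between the tissues as well. In wild-type hippocampus against neocortex 5 of 6 neuron markers were lower (median -0.24; Snap25 and Nefm passed), 5 of 5 oligodendrocyte markers were higher (median 0.27; Mbp and Cldn11 passed), and 5 of 6 astrocyte markers were higher (Gfap passed at 1.18 ± 0.15). All 4 choroid plexus markers were higher, with Ttr at 4.28 ± 1.16. Of 7 microglia markers 5 were higher and of 7 endothelium markers 3, with Ramp2 passed at 0.65 ± 0.11. The summed signal of the neuron markers ran from 57571 to 74714 on wild-type hippocampus arrays against 71446 to 93044 on wild-type neocortex arrays, that of the oligodendrocyte markers from 27764 to 38462 against 27510 to 33167, that of the astrocyte markers from 35377 to 41681 against 32003 to 38485.5, and that of the choroid plexus markers from 3894 to 45393 against 5143 to 8993.5. No tested marker was at 0 on any array. The part of these markers in the ribosomal protein difference was not tested, and in whole tissue a different mix of cells and a different amount of RNA per cell cannot be told apart.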

How the data were processed

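The authors deposited linear intensity values for 12488 probe sets. MAS5 is the software named in the submitters' processing notes; its signals are scaled per array and noisy when low. Median signals ran from 299.6 to 413.8, and precision is limited by how many arrays a group has. The platform annotation gave 10855 probe sets 1 symbol, 396 several and 1237 none here.

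Signals were taken as log2(signal + 30.7), the 10th percentile, which understates differences of dim genes. Probe sets with a mean log2 level above the pooled 30th percentile were tested (8534 of 12488, without 66 controls) with limma 3.58.1 in R 4.3.3 (lmFit, eBayes with trend) and Benjamini-Hochberg adjustment at 0.05. Knockouts were fitted per tissue with sex, tissues in 1 fit of 50 arrays with sex within tissue. A typical signal is the back-transformed mean log2 level. The procedure was also run on simulated data with independent noise per probe set, without the correlation between genes and the outlying arrays seen here. Its recovery of small shifts is not given here.

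Groups follow the titles, since the design text gives the sizes as 10, 5 and 10 and names one genotype in place of another. The titles share replicate numbers, which are not stated to mark the same animal and were not taken to pair the arrays. Same-number correlations between tissues ran from -0.0025 to 0.19 in wild-type, 0.066 to 0.26 in S1P2-KO and -0.068 to 0.17 in S1P3-KO mice. These values do not settle whether the arrays are paired. No 2 arrays were identical.

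The members, the lists and the alternatives were chosen with earlier results of these data known. The text names members past the threshold, the 3 highest and lowest otherwise, Rplp0, Rpsa, the paralogs by symbol, members whose probe sets disagreed, and up to 3 called genes of other lists. Alternatives were 12 settings, leaving out each array and, added after the values were seen, each sex alone.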

Additional observations from a re-analysis of the deposited data

Results flagged for a closer look

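Among 54 sets of arrays examined (in 6 groups, for 8 genes that the comparisons turn on and for the median over the members), 2 held an array that stood far from the others of its group, and chance gives about 1 in 20. Rps4x read 16741.5 on S1P2-KO hippocampus replicate 7, whose 3' to 5' ratio was 1.37, against 11879 to 13446 on the other 9 arrays. It read 19430.8 on S1P3-KO hippocampus replicate 5, whose ratio was 4.46, against 13690 to 15110 on the other 4. The part of the ratio in either value was not tested.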

How the results depend on the processing

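Under the 11 alternatives run for the comparison of tissues, the median over the members stayed above 0 in all 3 genotypes: 0.11 to 0.15 in wild-type, 0.12 to 0.18 in S1P2-KO and 0.08 to 0.17 in S1P3-KO mice. The number of members called was less stable. In wild-type mice (3 called) it was 1 with median centring, 5 without the sex covariate and 5 with the replicate block. In S1P2-KO mice (2 called) it was 4 with quantile normalization, 1 with median centring, 1 with the mean of all probe sets, 5 without sex, 4 with the control ratio as a covariate, 4 without the arrays of high ratio, 6 with array weights and 5 with the replicate block. In S1P3-KO mice (3 called) it was 1 without the filter, 1 with median centring, 0 with the ratio in the model, 1 without the arrays of high ratio, 0 with array weights and 6 with the replicate block.

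Leaving out 1 array at a time gave 1 to 4 called members in wild-type, 1 to 2 in S1P2-KO and 0 to 5 in S1P3-KO mice. The lowest count in S1P2-KO came without neocortex replicate 4 or hippocampus replicate 1, and in S1P3-KO 0 came without neocortex replicate 2, 1 without neocortex replicate 1 or 3 or hippocampus replicate 5, and 5 without hippocampus replicate 2. The median of S1P2-KO against S1P3-KO hippocampus ran from -0.1235 to 0.01703. In fits of 1 sex, 1 member was called in wild-type and 0 in S1P2-KO females between the tissues, and the median of S1P2-KO against wild-type hippocampus was -0.1328 in males.

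In neocortex 1 member (Rps19) was called with the ratio in the model in S1P3-KO against wild-type and 1 in S1P2-KO against S1P3-KO, and 1 with the replicate block in S1P3-KO against wild-type. Same-numbered arrays of the 2 tissues deviated together only in part: the median correlation was 0.103 in wild-type (-0.013 for other numbers), 0.153 in S1P2-KO (-0.032) and 0.030 in S1P3-KO mice (-0.008), and 3 of 10, 3 of 10 and 1 of 5 correlated best with their own number, so whether 1 animal gave both tissues is unknown. Arrays of the same number in a genotype also share a sex, which was not removed from these deviations, so the correlations cannot settle the pairing. With the replicate block the median was -0.1533 in S1P3-KO against wild-type neocortex, -0.185 in S1P3-KO against wild-type hippocampus, 0.1324 in S1P2-KO against S1P3-KO neocortex and 0.1081 in hippocampus, and Rpl7 in S1P3-KO against wild-type hippocampus was -0.03001 in place of 0.1754. In these comparisons of genotypes the block joins different mice that share a number, and makes no use of pairs of tissues. For S1P3-KO replicates 3 to 5 it joins females with males of the other genotypes. The causes were not tested, save that the filter changes how many probe sets are adjusted over and a left-out array lowers n. The fit with only the 2 genotypes compared was run for the genotype comparisons, and the arrays of high ratio, all of hippocampus, leave the neocortex comparisons as they are.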
